A study of Mus musculus with 16 samples.

Results

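Triglyceride assembly in the liver was followed through 10 genes: the acyl-CoA synthetase Acsl3, the acyltransferases Gpam, Agpat2, Mogat1, Dgat1 and Dgat2, the phosphatidate phosphatases Lpin1 and Lpin2, the lipid transfer protein Mttp and the nuclear receptor Pparg. They were taken by symbol from the platform annotation of the array, and all 10 had a signal, among 16563 genes with a row and 7790 genes bright enough to be tested. Expression had been measured in total liver RNA of 16 male C57BL/6 mice, 1 array per mouse and 4 mice per group. The groups were CYP7A1 transgenic mice on the Western diet (Tg WD), wild-type mice on the Western diet (WT WD), CYP7A1 transgenic mice on chow (Tg chow) and wild-type littermates on chow (WT chow). The mice entered the study at 12 to 14 weeks of age, ate their diet for 4 months and were fasted for about 16 h before the liver was taken. The age label is 6 months in every group. The Western diet supplied 42% of calories as fat and contained 0.2% cholesterol. Which promoter drives the transgene, from which species it comes and how many founder lines were used were not stated in the labels.

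Triglyceride is built on a glycerol backbone in the endoplasmic reticulum. Fatty acids are first activated to acyl-CoA, then added stepwise by glycerol-3-phosphate and lysophosphatidate acyltransferases, dephosphorylated to diacylglycerol by lipins and finally acylated by diacylglycerol acyltransferases. Monoacylglycerol acyltransferases offer a bypass that starts from monoacylglycerol. Hepatocytes store the product in droplets or load it onto apolipoprotein B, a step that needs the microsomal triglyceride transfer protein, and secrete it as very low density lipoprotein (VLDL). PPARG is best known as the master regulator of adipocytes, is scarce in lean liver and is raised in many fatty livers of mice.

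Signals are deposited log2 values, and fold changes come from 1 limma fit of all 16 arrays with p-values adjusted by Benjamini-Hochberg over 7790 genes. The threshold for a call was 0.05 on the adjusted p. Mean raw intensity ran from 348.1 to 446.6 per array, and Spearman correlations of arrays were 0.931 to 0.953 within groups and 0.918 to 0.942 between groups. The 7 hepatocyte markers with a row averaged 10.25 to 10.53 log2 units per array, but Fgb and Tat among them were too dim to be tested. None of the tested ones was called between genotypes. The Western diet lowered the Alb signal in WT-labelled livers (-0.39, limma adjusted p = 0.01626) and Cps1 in Tg-labelled livers (-0.79, limma adjusted p = 0.01486). The Alb row was itself dim, at 6.256 to 6.964 over all 16 arrays, just above the limit for testing of 6.246. Whether this row reads albumin RNA above background was not tested, so its decrease is no measure of albumin expression. The level of Cyp7a1, the rate-limiting enzyme of bile acid synthesis, went against the transgene label. It lay between 6.20 and 7.84 on the 8 arrays labelled Tg and between 10.004 and 12.41 on the 8 labelled WT. The log2 fold change was -4.63 on the Western diet (SE 0.42, limma adjusted p = 1.002e-06) and -4.64 on chow (SE 0.42, adjusted p = 1.631e-06). Whether the array row also reads the transgene was not tested, and the genotype directions given here depend on how the arrays were labelled. Groups are called Tg-labelled and WT-labelled.

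Pparg and Mogat1 were lower and Acsl3 and Mttp were higher in Tg-labelled livers on both diets, and Dgat2 was lower on chow. The Western diet lowered Dgat1 and Mttp in both genotypes. Of the 10 genes, 4 were called between genotypes on the Western diet, where 15.1% of 7790 genes were called, with 2 higher (6.77% of all genes) and 2 lower (8.29%). On chow 5 were called, against 9.99% of all genes, with 2 higher (4.58%) and 3 lower (5.4%). The Western diet changed 2 of the 10 in Tg-labelled livers, against 9.81% of all genes, and both were lower (4.85% of all genes were higher and 4.96% lower). In WT-labelled livers it changed 5, against 19.5% of all genes, with 1 higher (10.3%) and 4 lower (9.18%). For the interaction 0 were called by limma, and 0 had an unadjusted p under 0.05, against 5.21% of all genes called.

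Arrays of the 2 genotypes did not overlap for 5 of the 10 genes on the Western diet (23.2% of all genes), 3 higher (11.5%) and 2 lower (11.8%). On chow this held for 5 (13.5%), 2 higher (6.17%) and 3 lower (7.28%). Between diets it held for 2 in Tg-labelled livers, both lower (17% of all genes, 7.84% higher and 9.17% lower), and for 3 in WT-labelled livers, all lower (22.5% of all genes, 10.6% higher and 11.9% lower). The median log2 fold change of the 10 between genotypes was -0.02 on the Western diet and -0.04 on chow, against 0.016 and -0.002 over all tested genes, with increases and decreases on both sides. Other scaling moved the balance over all genes. With median scaling, calls between genotypes were 280 higher and 1086 lower on the Western diet, against 527 and 646 here, and 171 higher and 952 lower on chow, against 357 and 421. Calls between diets were 362 higher and 220 lower in Tg-labelled livers, against 378 and 386, and 883 higher and 510 lower in WT-labelled livers, against 802 and 715.

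The start-site windows of 3 of these genes are shown because Mogat1 and Acsl3 are neighbours on mouse chromosome 1 that moved in opposite directions, while Mogat1 moved with Pparg. In the RefSeq annotation of GRCm38.p6 no protein-coding gene lies between Mogat1 and Acsl3, and 2 predicted loci do. The sequences are from RefSeq (build GRCm38.p6, plus strand, 250 bases before to 50 bases after a start), and 8 of the 10 genes matched by symbol. Capitals mark the CCAAT box or its reverse complement ATTGG.
Mogat1, chr1:78510810-78511109: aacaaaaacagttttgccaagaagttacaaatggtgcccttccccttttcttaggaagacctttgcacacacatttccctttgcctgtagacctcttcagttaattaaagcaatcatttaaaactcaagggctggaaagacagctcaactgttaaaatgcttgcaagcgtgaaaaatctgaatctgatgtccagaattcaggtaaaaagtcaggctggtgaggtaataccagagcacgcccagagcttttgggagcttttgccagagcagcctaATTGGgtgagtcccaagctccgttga
Acsl3, chr1:78657575-78657874: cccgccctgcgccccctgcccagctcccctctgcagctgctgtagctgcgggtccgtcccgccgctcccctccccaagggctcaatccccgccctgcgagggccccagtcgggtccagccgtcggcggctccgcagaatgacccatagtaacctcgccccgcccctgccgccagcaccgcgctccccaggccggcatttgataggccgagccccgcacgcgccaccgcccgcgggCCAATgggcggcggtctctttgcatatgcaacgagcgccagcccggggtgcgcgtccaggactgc
Pparg, the third start, chr6:115421816-115422115: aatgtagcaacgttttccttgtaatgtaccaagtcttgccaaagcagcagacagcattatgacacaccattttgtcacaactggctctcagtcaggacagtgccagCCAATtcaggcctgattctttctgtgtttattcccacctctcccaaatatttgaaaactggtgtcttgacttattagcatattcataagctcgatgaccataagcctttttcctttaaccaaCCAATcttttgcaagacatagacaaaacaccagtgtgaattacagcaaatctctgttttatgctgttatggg

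The windows were searched on both strands for 4 motifs. The first is the direct repeat of AGGTCA spaced by 1 base, bound by PPARG with its partner RXR, TCACNCCAC is a core of sterol regulatory elements, CACGTG is the E-box and CCAAT is the box bound by NF-Y. None of the windows of Mogat1, Acsl3 and Pparg held the first 3 motifs, which occur in 0.0396%, 1.24% and 7.15% of 32851 windows of 300 bases. The CCAAT box was present once in the Mogat1 window, once in the Acsl3 window and 2 times in the Pparg window shown, against 37.4% of all windows with at least 1. Of the other Pparg starts, one window held 1 CCAAT box and one held 0. Among the other windows of these genes, Lpin2 was alone in holding CACGTG. The matches describe these letters only and show no binding.

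**Figure D1:**
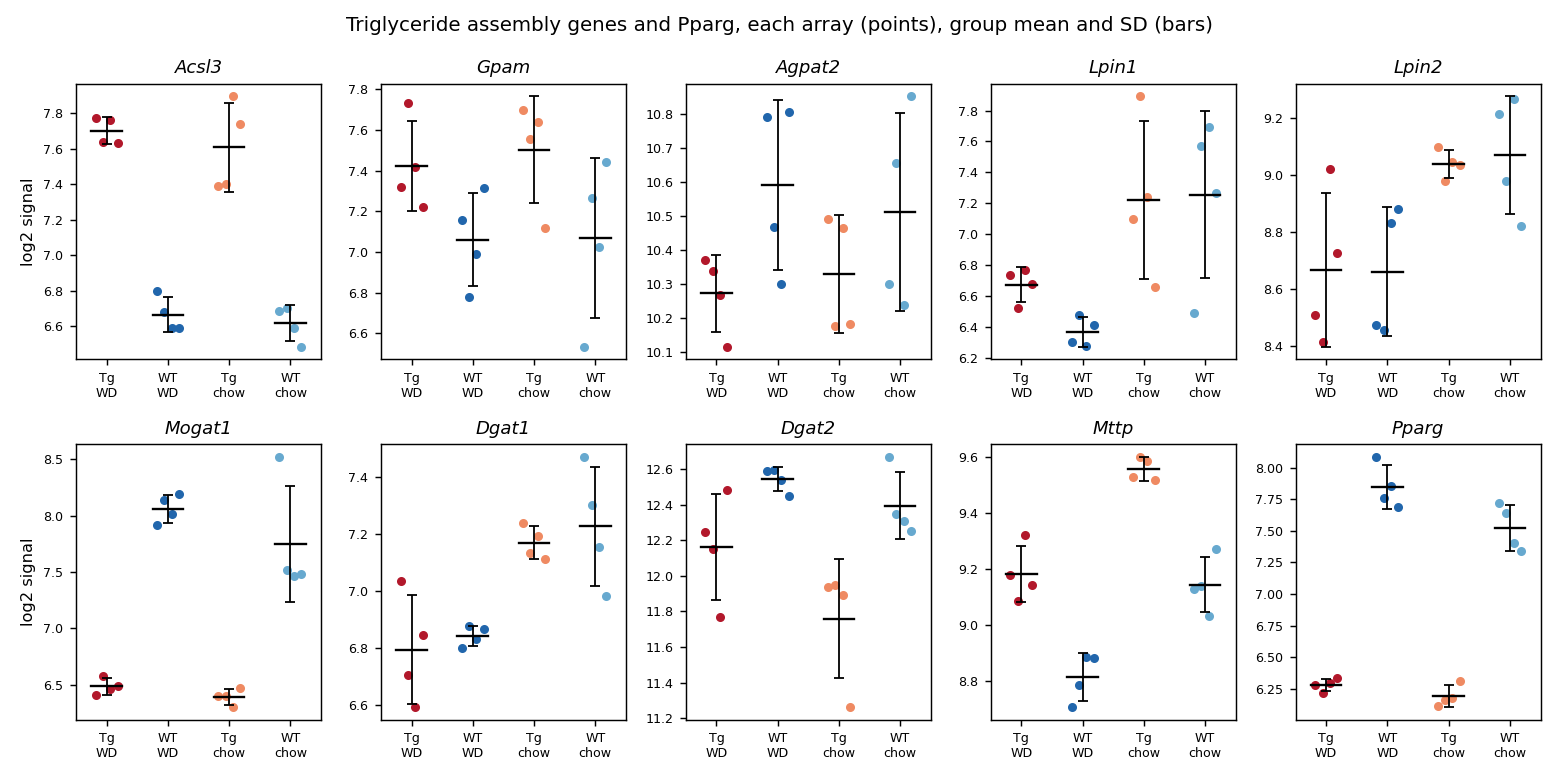
Log2 signal (y axis, scaled separately for each gene) of the 10 genes on each of 16 arrays, with points for mice, horizontal lines for group means and bars for the SD (n = 4). Groups run Tg WD, WT WD, Tg chow, WT chow. Pparg and Mogat1 are low and Acsl3 is high on all 8 Tg-labelled arrays.

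Pparg, the receptor of the group, was 6.28, 6.22, 6.30 and 6.33 in the Tg-labelled livers on the Western diet, against 8.08, 7.76, 7.85 and 7.69 in the WT-labelled livers. On chow it was 6.11, 6.16, 6.18 and 6.31 in Tg-labelled livers, against 7.72, 7.64, 7.40 and 7.34 in WT-labelled livers. Every Tg-labelled array lay below every WT-labelled array, with no overlap on either diet or across diets (across diets 16.4% and 33.9% of all genes had no overlap). Pparg fell 2.96-fold on the Western diet (log2 fold change -1.56, SE 0.09, limma adjusted p = 4.198e-09). On chow it fell 2.52-fold (log2 fold change -1.33, SE 0.09, adjusted p = 8.221e-08). The lower level in Tg-labelled livers sat at percentiles 51.4 and 47.2 of all array rows, and 4 of those 8 arrays were under the filter of 6.246. Pparg was therefore kept in the test through its level in WT-labelled livers, and no detection call exists to say whether the Tg-labelled level is above background. With stronger background correction (normexp, offset 16, chosen after seeing the data) the fold changes were -2.12 and -1.88.

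Diet moved Pparg little. In WT-labelled livers it rose 1.25-fold on the Western diet (log2 fold change 0.32, SE 0.09, limma adjusted p = 0.02432), but the 2 groups overlapped. That call was lost without WT chow replicate 3, WT chow replicate 4, WT WD replicate 1 or WT WD replicate 3 (adjusted p = 0.07969, 0.07464, 0.08856 and 0.05721), and with only these 8 arrays in the fit (adjusted p = 0.07691). In WT-labelled livers 7 of 8 tested macrophage markers also rose with the Western diet, as did 10.3% of all genes. The part of these markers in the diet results of that genotype was not tested. In Tg-labelled livers the Pparg difference was 0.09 with a 95% interval from -0.11 to 0.29 (adjusted p = 0.5937). The genotype effects on the 2 diets differed by -0.23 with SE 0.13, which did not pass (adjusted p = 0.3603).

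Adipocytes and macrophages also express Pparg, so their markers were read beside it. None of the 5 adipocyte markers with a row (Adipoq, Lep, Retn, Plin1 and Fabp4) passed the filter, and their mean per array ran from 5.92 to 6.10 over all groups. The mean of 10 macrophage markers was 7.61 to 8.17 in Tg-labelled and 8.18 to 8.57 in WT-labelled livers on the Western diet. On chow it was 7.47 to 7.96 in Tg-labelled and 6.83 to 7.58 in WT-labelled livers. On chow 3 of 8 tested macrophage markers were higher in Tg-labelled livers, against 4.58% of all genes. On the Western diet 1 was higher (6.77% of all genes) and 3 were lower (8.29%), and 6 of 8 stellate and fibroblast markers were lower (mean 7.04 to 7.13 in Tg-labelled and 7.46 to 7.75 in WT-labelled livers). Their part in the Pparg result was not tested on either diet, and in whole liver RNA fewer cells of a type cannot be told from less RNA per cell.

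Mogat1, which makes diacylglycerol from monoacylglycerol, followed Pparg closely. It was 6.41, 6.58, 6.46 and 6.49 in Tg-labelled livers on the Western diet, against 7.91, 8.14, 8.02 and 8.19 in WT-labelled livers. On chow it was 6.40, 6.40, 6.30 and 6.47 in Tg-labelled livers, against 8.52, 7.52, 7.47 and 7.48 in WT-labelled livers. The genotypes did not overlap on either diet. Mogat1 fell 2.99-fold on the Western diet (log2 fold change -1.58, SE 0.17, limma adjusted p = 5.908e-06). On chow it fell 2.56-fold (log2 fold change -1.36, SE 0.17, adjusted p = 7.604e-05).

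The Mogat1 value of 8.52 in WT chow replicate 1 stood at least 1 log2 unit over the other 3 arrays of its group, and it decided the diet comparison. With all arrays the Western diet difference in WT-labelled livers was 0.32 (SE 0.17, limma adjusted p = 0.2065). Without that array it was 0.57 and passed (adjusted p = 6.718e-05). The interaction changed likewise, to -0.48 without that array (adjusted p = 0.01209), against -0.22 with all arrays (adjusted p = 0.6646). In Tg-labelled livers the diet difference was 0.09 (adjusted p = 0.7747). WT chow replicate 1 was also the highest of its 4 arrays for Pparg, Dgat1 and Dgat2 and the lowest for Gpam and Lpin1. It had the highest mean raw intensity of all arrays, 446.6, the lowest macrophage marker mean, 6.83, and the lowest endothelial marker mean, 7.14. Their part in its Mogat1 value was not tested.

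**Figure D2:**
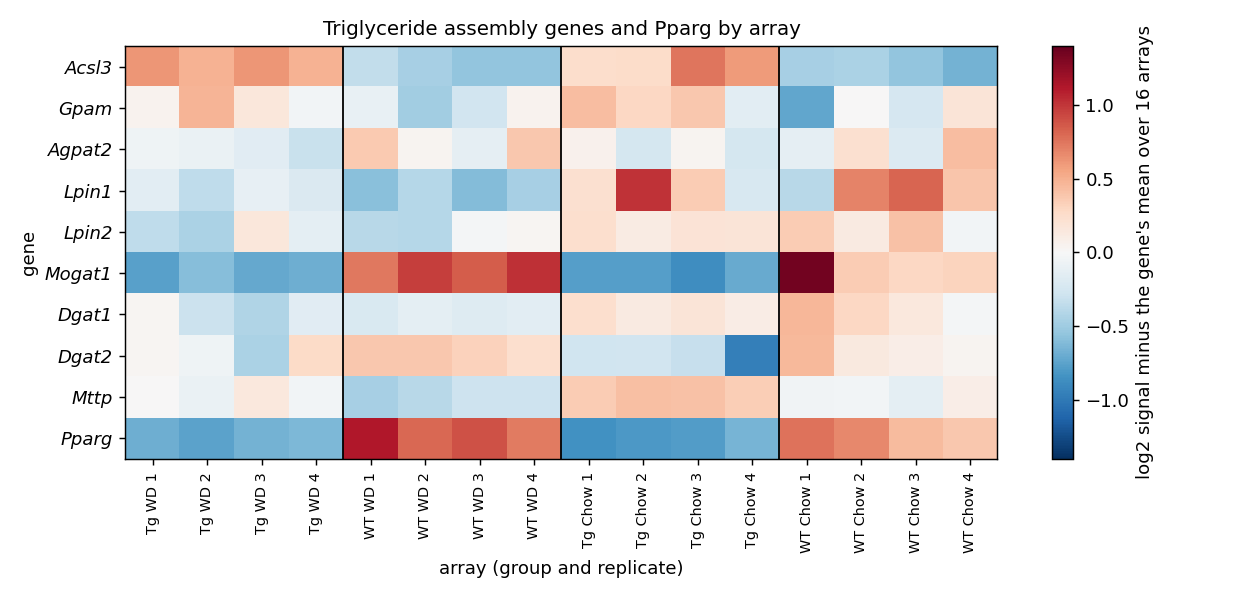
Log2 signal of each gene minus its own mean over 16 arrays (colour, from -0.95 to 1.35), with genes in rows in pathway order and arrays in columns by group. The rows of Mogat1 and Pparg and, in the opposite direction, Acsl3 change colour with the genotype label, and WT chow replicate 1 stands out for Mogat1.

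Acsl3 activates long-chain fatty acids to acyl-CoA and sits on the endoplasmic reticulum and on droplets. It was 7.77, 7.64, 7.76 and 7.63 in Tg-labelled livers on the Western diet, against 6.80, 6.68, 6.59 and 6.59 in WT-labelled livers. On chow it was 7.39, 7.40, 7.89 and 7.74 in Tg-labelled livers, against 6.68, 6.71, 6.59 and 6.49 in WT-labelled livers. All 8 Tg-labelled arrays lay above all 8 WT-labelled arrays. Acsl3 rose 2.05-fold on the Western diet (1.04 on the log2 scale, limma adjusted p = 2.141e-06). On chow it rose 1.99-fold (0.99, SE 0.10 on either diet, limma adjusted p = 8.395e-06). Diet differences were 0.10 in Tg-labelled livers (95% interval -0.12 to 0.31) and 0.05 in WT-labelled livers (-0.17 to 0.26), and neither passed. Among other acyl-CoA synthetases, Acsl5 rose in Tg-labelled livers on the Western diet (0.49, SE 0.08, limma adjusted p = 0.0006279) and Acsl4 did so on chow (0.29, SE 0.08, adjusted p = 0.02502).

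Gpam and Agpat2, the acyltransferases of the first and second steps, were not called in any of the comparisons made. Gpam, the mitochondrial glycerol-3-phosphate acyltransferase, averaged 7.42 ± 0.22 in Tg-labelled and 7.06 ± 0.23 in WT-labelled livers on the Western diet (SD, n = 4 each). On chow it averaged 7.504 ± 0.26 in Tg-labelled and 7.07 ± 0.39 in WT-labelled livers. The differences were 0.36 (limma adjusted p = 0.1926) and 0.44 (limma adjusted p = 0.1254), and the arrays of the 2 labels overlapped on both diets. On chow replicates 1 and 2 alone gave 0.73, and replicates 3 and 4 gave 0.15. Agpat2, whose human counterpart is mutated in a congenital lipodystrophy, differed by -0.32 on the Western diet (limma adjusted p = 0.1428) and -0.18 on chow (adjusted p = 0.4428). A further enzyme of the first step, Gpat3, fell in Tg-labelled livers on the Western diet (-0.64, SE 0.11, adjusted p = 0.000772).

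The lipins convert phosphatidate to diacylglycerol, and Lpin1 is also a coactivator induced by fasting. Lpin1 was 6.74, 6.52, 6.77 and 6.67 in Tg-labelled livers on the Western diet, and 7.10, 7.89, 7.24 and 6.66 in Tg-labelled livers on chow. In WT-labelled livers it was 6.30, 6.48, 6.28 and 6.41 on the Western diet, against 6.49, 7.57, 7.69 and 7.27 on chow. The Western diet arrays were tight and the chow arrays spread over more than 1 log2 unit in both genotypes. Lpin1 fell 1.85-fold on the Western diet in WT-labelled livers (log2 fold change -0.89, SE 0.23, limma adjusted p = 0.01288). The call was lost without WT chow replicate 3 (-0.74, adjusted p = 0.05183). In Tg-labelled livers the difference of -0.55 did not pass (adjusted p = 0.1447). The diet effects differed by 0.34 between genotypes (SE 0.33, interaction adjusted p = 0.6203).

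Between genotypes on the Western diet, every Tg-labelled array of Lpin1 lay above every WT-labelled array, with a difference of 0.31. In the fit of all arrays it did not pass (limma adjusted p = 0.4296). With only those 8 arrays it did (adjusted p = 0.0169), as the wide chow groups no longer entered the spread. On chow the genotype difference was -0.03 (adjusted p = 0.945), but it was 0.47 in replicates 1 and 2 alone and -0.53 in replicates 3 and 4. Lpin2 averaged 8.66 ± 0.23 on the Western diet and 9.07 ± 0.21 on chow in WT-labelled livers, a decrease of 1.33-fold (log2 fold change -0.41, SE 0.13, limma adjusted p = 0.03996). The call for Lpin2 was lost when any of WT chow replicates 1, 2 and 3 or WT WD replicates 1 and 2 was left out (adjusted p from 0.05197 to 0.1232) and with no filter on dim genes (adjusted p = 0.05963). In Tg-labelled livers Lpin2 differed by -0.37 (adjusted p = 0.08497), and it differed between genotypes by 0.01 and -0.03 on the Western diet and chow.

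The diacylglycerol acyltransferases complete the molecule, and the 2 enzymes belong to unrelated protein families. Dgat2 is the isoform tied to newly made fatty acids, while Dgat1 is tied more to fatty acids taken up or recycled. Dgat2 was 11.94, 11.95, 11.89 and 11.26 in Tg-labelled livers on chow, against 12.67, 12.35, 12.31 and 12.25 in WT-labelled livers. The groups did not overlap, and Dgat2 fell 1.55-fold (log2 fold change -0.63, SE 0.15, limma adjusted p = 0.01632). Without WT chow replicate 1 the fold change was -0.54 and just missed the threshold (adjusted p = 0.05159), as it did with only these 8 arrays in the fit (adjusted p = 0.05209).

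On the Western diet Dgat2 was 12.24, 12.15, 11.77 and 12.48 in Tg-labelled livers, against 12.59, 12.60, 12.54 and 12.45 in WT-labelled livers. Here the groups overlapped and the difference of -0.38 did not pass (limma adjusted p = 0.1093), although it passed without Tg WD replicate 4 (-0.49, adjusted p = 0.04991) or Tg chow replicate 4 (adjusted p = 0.0408). The effects on the 2 diets were not shown to differ (interaction 0.25, SE 0.22, adjusted p = 0.566). The diet difference of Dgat2 was 0.40 in Tg-labelled livers (limma adjusted p = 0.1067, and 0.03019 without Tg WD replicate 3) and 0.15 in WT-labelled livers (adjusted p = 0.5356).

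Dgat1 behaved otherwise, since it moved with diet and not detectably with genotype. It was 7.04, 6.71, 6.59 and 6.85 on the Western diet in Tg-labelled livers, against 7.24, 7.13, 7.19 and 7.11 on chow. In WT-labelled livers it was 6.80, 6.88, 6.83 and 6.87 on the Western diet, against 7.47, 7.30, 7.15 and 6.98 on chow. Diet groups did not overlap in either genotype. Dgat1 fell 1.3-fold in Tg-labelled livers (-0.38 on the log2 scale, limma adjusted p = 0.02486). In WT-labelled livers it fell 1.31-fold (-0.39, SE 0.10 in either genotype, limma adjusted p = 0.01245). The call in Tg-labelled livers was lost without Tg chow replicate 1, Tg chow replicate 3, Tg WD replicate 2 or Tg WD replicate 3 (adjusted p from 0.05469 to 0.07418). It was also lost with median scaling of the scanner intensities (adjusted p = 0.05761). Genotype differences were -0.05 and -0.06 on the Western diet and chow, with 95% intervals of -0.26 to 0.16 and -0.27 to 0.15.

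**Figure D3:**
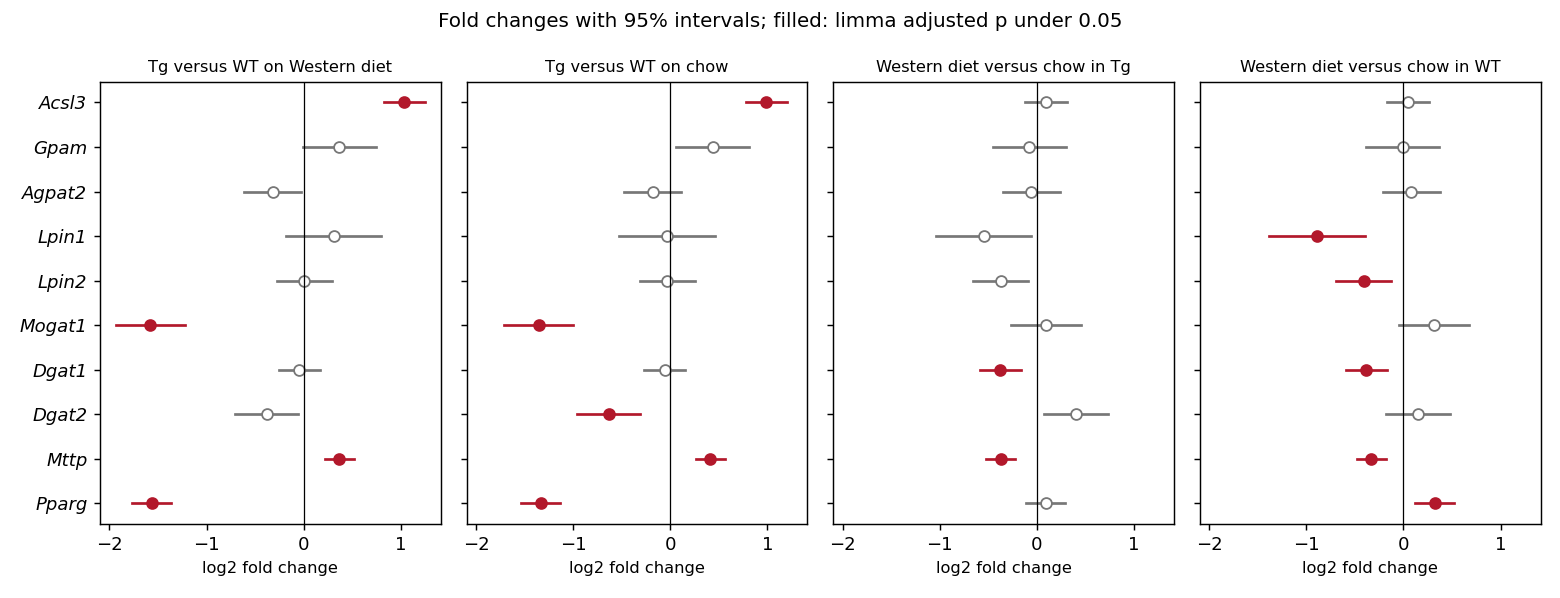
Log2 fold changes (x axis) of the 10 genes in 4 comparisons, with 95% intervals from the limma fit as lines. Filled red points have a limma adjusted p under 0.05. Pparg, Mogat1, Acsl3 and Mttp are filled in both genotype panels, and Dgat1 and Mttp in both diet panels.

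Mttp encodes the transfer protein that lipidates apolipoprotein B, and it was called in each of the 4 comparisons of groups. It was 9.18, 9.08, 9.32 and 9.14 in Tg-labelled livers on the Western diet, against 8.71, 8.79, 8.89 and 8.88 in WT-labelled livers. On chow it was 9.53, 9.60, 9.58 and 9.52 in Tg-labelled livers, against 9.13, 9.14, 9.03 and 9.27 in WT-labelled livers. In none of the 4 comparisons did the groups overlap. Mttp rose 1.29-fold in Tg-labelled livers on the Western diet (0.37 on the log2 scale, limma adjusted p = 0.001836). On chow it rose 1.33-fold (0.41, adjusted p = 0.0014, SE 0.07 throughout). It fell 1.3-fold on the Western diet in Tg-labelled livers (-0.37, adjusted p = 0.003221) and 1.26-fold in WT-labelled livers (-0.33, adjusted p = 0.003289).

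The genotype differences on the 2 diets differed by -0.05 (SE 0.10, interaction adjusted p = 0.8551, limma). Mttp in Tg-labelled livers on the Western diet and in WT-labelled livers on chow differed by 0.04, with a 95% interval from -0.11 to 0.19. With median scaling in place of the deposited scaling both genotype calls were lost (0.24, adjusted p = 0.08343 on the Western diet and 0.26, adjusted p = 0.0692 on chow), while both diet calls were kept. Replicates 1 and 2 alone gave a genotype difference of 0.39 on the Western diet and 0.43 on chow, and replicates 3 and 4 gave 0.35 and 0.40.

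The order of group means differed between the genes. Tg WD against WT chow called 12.9% of all genes, and Tg chow against WT WD called 32.8%. Pparg and Mogat1 ran WT WD, WT chow, Tg WD, Tg chow from high to low, and the pair of Tg-labelled groups did not differ by the test. Acsl3 ran Tg WD, Tg chow, WT WD and WT chow, and neighbours of the same label did not differ by the test. Mttp ran Tg chow, Tg WD, WT chow and WT WD, where Tg WD and WT chow did not differ by the test and the other neighbours did. Dgat1 and Lpin1 were highest in WT chow, closely followed by Tg chow (limma adjusted p = 0.7693 and 0.945 between them). Dgat2 was highest in WT WD and lowest in Tg chow, 1.72-fold apart (adjusted p = 0.001043).

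Of the remaining enzymes of glycerolipid synthesis 15 had a row and 11 were tested. Between genotypes 1 rose and 1 fell on the Western diet (Acsl5 and Gpat3), where 15.1% of all genes were called, and 1 rose on chow (Acsl4), where 9.99% were. Between diets Gpat3 fell in Tg-labelled livers (-0.55, SE 0.11, limma adjusted p = 0.004817) and the acyltransferase Agpat4 rose in WT-labelled livers (0.28, adjusted p = 0.03869). The Agpat4 groups overlapped, and the WT chow mean of 6.16 lay under the filter of 6.246. Agpat4 was therefore kept in the test through its level in the other groups. The second monoacylglycerol acyltransferase gene, Mogat2, averaged 5.99 and 6.09 in Tg-labelled and WT-labelled livers on the Western diet, under the filter, and was not tested. Of 9 tested enzymes that turn diacylglycerol or phosphatidate into phospholipid, 2 rose and 1 fell between genotypes on the Western diet (15.1% of all genes). On chow 1 rose and 1 fell (9.99% of all genes). Pcyt2, of phosphatidylethanolamine synthesis, rose in Tg-labelled livers on the Western diet and on chow (0.44 and 0.48, SE 0.08, adjusted p = 0.001608 and 0.001464). Chpt1, which makes phosphatidylcholine from diacylglycerol, fell in Tg-labelled livers on the Western diet (-0.94, SE 0.16, adjusted p = 0.0006327).

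Of 12 tested partners of VLDL assembly, 3 rose and 1 fell between genotypes on the Western diet, where 15.1% of all genes were called. On chow 1 fell, where 9.99% of all genes were called. Apob, the gene of apolipoprotein B, had no row and was not tested. Apoc3, among those not called, lay at 14.69 to 14.829, with the same highest value in every group, so a difference at the top of the scale could be missed. Tm6sf2, which aids VLDL lipidation, averaged 7.93 ± 0.15 in Tg-labelled and 7.42 ± 0.16 in WT-labelled livers on the Western diet (SD, n = 4 each), a rise of 0.51 (limma adjusted p = 0.00239). On chow it averaged 8.18 ± 0.17 in Tg-labelled and 8.30 ± 0.10 in WT-labelled livers, and the interaction passed (0.62, SE 0.14, adjusted p = 0.01651). In WT-labelled livers Tm6sf2 fell on the Western diet together with Mttp (-0.88, SE 0.10, adjusted p = 1.61e-05). The carboxylesterase Ces1g fell in Tg-labelled livers on the Western diet and on chow (-1.38 and -1.45, SE 0.12, adjusted p = 4.991e-07 and 3.953e-07).

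The list of genes regarded as PPARG targets in fatty liver was drawn up with earlier results of these arrays known, so its direction is not independent evidence. Of 15 listed 9 were tested. Between genotypes 7 fell and 1 rose on the Western diet, against 8.29% of all genes lower and 6.77% higher, and 5 fell on chow, against 5.4% of all genes lower. These counts describe the genes that passed the filter and support no statement on the list, since 3 of the 9 (Cidea, Fitm1 and Vldlr) had Tg-labelled arrays under the filter. Cidea and Vldlr were kept through their WT-labelled level. The Fitm1 means in Tg-labelled livers, 6.41 on the Western diet and 6.26 on chow, lay just above the filter. Cidea, a droplet fusion protein, averaged 6.14 ± 0.12 in Tg-labelled and 9.37 ± 0.34 in WT-labelled livers on the Western diet (SD, n = 4 each). On chow it averaged 6.29 ± 0.12 in Tg-labelled and 9.21 ± 1.79 in WT-labelled livers. Plin4, a coat protein of droplets, fell in Tg-labelled livers, with log2 fold changes of -2.70 on the Western diet and -1.85 on chow (limma adjusted p = 1.002e-06 and 0.00014). Vldlr, which takes up lipoproteins, fell by 1.15 and 0.93 (adjusted p = 1.04e-06 and 2.536e-05), but all 8 Tg-labelled arrays lay under the filter (5.994 to 6.188), so it was tested through its WT-labelled level and the size of the fall depends on the background.

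The target genes did not all share the pattern of Pparg. Cidec, another droplet fusion protein, averaged 8.15 ± 0.67 in Tg-labelled and 10.16 ± 0.18 in WT-labelled livers on the Western diet, and fell by 2.01 on the log2 scale (SE 0.26, limma adjusted p = 4.033e-05). On chow it averaged 10.02 ± 0.38 in Tg-labelled and 9.87 ± 0.28 in WT-labelled livers, and the interaction passed (-2.16, SE 0.36, limma adjusted p = 0.002909). Lpl, lipoprotein lipase, fell by 2.29 in Tg-labelled livers on the Western diet, with an interaction of -2.80 (adjusted p = 0.0006121). Plin2, the common droplet coat protein of hepatocytes, rose by 0.54 in Tg-labelled livers on the Western diet (SE 0.15, adjusted p = 0.02503). Cd36, Fabp4, Aqp7 and Adipoq were below the filter and were not tested. Among 9 tested partners and coregulators of PPARG 1 was called between genotypes on the Western diet (15.1% of all genes), the deacetylase Hdac3 (-0.37, limma adjusted p = 0.01868). Its chow difference of -0.24 did not pass (adjusted p = 0.1469).

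**Figure D4:**
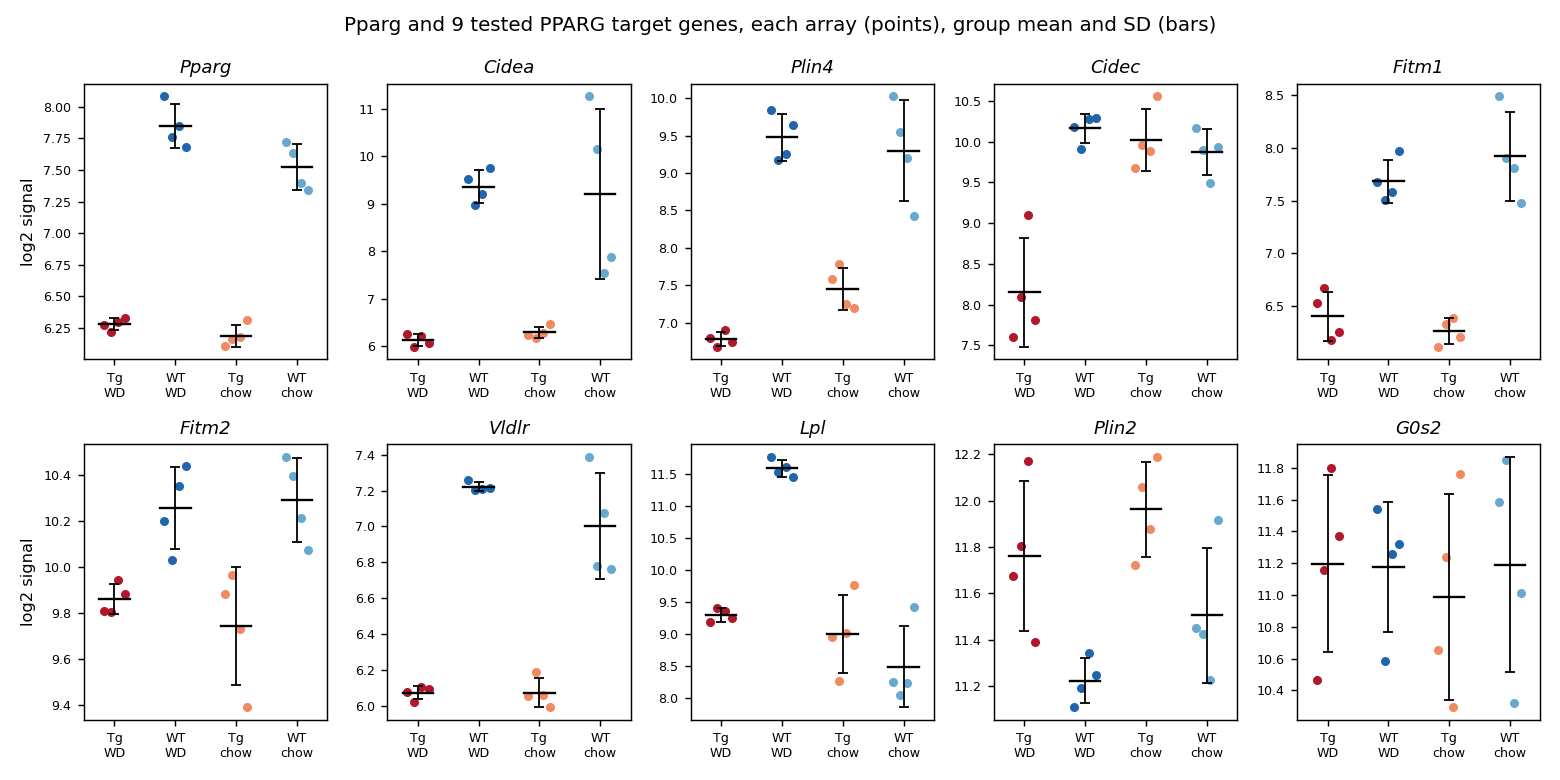
Log2 signal (y axis, scaled separately for each gene) of Pparg and the 9 tested target genes on each array, with group means as lines and SD as bars (n = 4). Cidea, Plin4, Fitm1, Fitm2 and Vldlr are lower in Tg-labelled livers on both diets, whereas Cidec and Lpl are lower on the Western diet and G0s2 overlaps throughout.

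Profiles over all 16 arrays, each centred on its own mean, were compared by root mean square difference for the 3 genes of widest range in group means. Among the 10 genes, Mogat1 and Pparg were nearest to each other (0.223 log2 units), and Mttp was nearest to Acsl3 (0.409). With the 10 genes left out of the search, the genes nearest to Mogat1 were Fitm1, a droplet formation protein (0.262 log2 units), Vldlr (0.272) and the glutathione transferase Gstm1 (0.299). Outside the 10, those nearest to Pparg were Vldlr (0.255), the oxysterol-binding protein gene Osbpl3 (0.268) and the sulfotransferase Gal3st1 (0.282). Nearest to Acsl3 were Tmem97 (0.165), Sel1l3 (0.226) and the sterol reductase and lamin receptor Lbr (0.241). Vldlr was among the 3 nearest genes outside the 10 for both Mogat1 and Pparg. Tg-labelled arrays lay under the filter for Vldlr (8 of 8), for Fitm1 (3 of 8) and in part for Pparg. Vldlr and Pparg were kept through their WT-labelled level. Mogat1 was also dim in Tg-labelled livers, at 6.30 to 6.58, though above the filter. The part of such dim values in the closeness of the profiles was not tested.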

How the data were processed

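The authors deposited 1 scanner file of signal intensity per array, on a linear scale without background subtraction, and a table of log2 values of the same arrays whose processing the labels do not state. The deposited log2 table lay within 0.0631 of quantile-normalized log2 intensities (column medians 6.254 to 6.264), is not centred per gene, and was analysed here because the choice of genes was defined on it. Per the labels' protocols, 250 ng of RNA was biotin-labelled with an Illumina kit. Of 25697 rows 23978 carry 1 symbol in the platform annotation, 0 several and 1719 none, and 23962 matched RefSeq by Entrez identifier. Acsl3, Lpin1 and Pparg have 3 rows each with identical values, read as 1, so transcripts are not separated. Values carrying more than 1 symbol (42 symbols) were left out. The row of highest mean stood for a gene, and genes above the median row (log2 6.246) were tested.

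Group means were fitted to all 16 arrays with limma 3.58.1 in R 4.3.3 (12 residual degrees of freedom), two-sided, adjusted over 7790 genes. The procedure was tested on simulated data. Genes and lists were chosen with earlier results of these data known. Named were all 10 genes, up to 4 called genes per list and comparison, Cyp7a1 and the 3 nearest profiles. Mogat2, Plin2, Fitm2 and G0s2 were chosen after their values were seen. Replicate numbers repeat across groups. On chow same-numbered arrays of the 2 genotypes deviated together (correlations 0.134 to 0.24). On the Western diet the correlations between genotypes were 0.199, -0.027, 0.148 and 0.138, and between diets the lowest was -0.206. A fit with the number as a replicate block was added, but the results above come from the fit without pairs. The 5th percentile of raw intensity ran from 52.3 to 62.9 per array, highest in WT chow replicates 1 and 2. The number of arrays limits the precision, and mice are the replicates.
Alternatives were scanner intensities with quantile or median scaling or normexp background correction (offset 50, and 16 added later), other filters, the mean over rows, robust eBayes with trend, a fit of only the groups compared, a term for replicates 1 and 2 against 3 and 4, exact permutation per gene, and each array left out.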

Additional observations from a re-analysis of the deposited data

Results flagged for a closer look

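In 40 sets of 4 arrays (10 genes in 4 groups), 2 had an array far from the other 3. Chance alone flags about 1 set in 20. Dgat2 was 11.26 in Tg chow replicate 4, against 11.89 to 11.95 in the other 3 arrays of that group, and this array was also the lowest of its group for Dgat1, Gpam, Lpin1 and Mttp. Mogat1 was 8.52 in WT chow replicate 1, against 7.47 to 7.52 in the other 3 arrays.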

How the results depend on the processing

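Over the recalculated differences of the 10 genes, 1271 kept direction and side of the threshold, 26 lost a call, 8 gained one and 45 changed sign, the last in differences that were not called. The 2 genotype calls each of Pparg, Mogat1 and Acsl3 held under all alternatives in which they were tested, which leaves out the stricter filter. One of these, the exact permutation, adds nothing to the lack of overlap. Groups that do not overlap always give its smallest possible p, 0.02857 in 70 splits, unadjusted. With the replicate block, 4 and 5 of the 10 genes were called between genotypes on the Western diet and chow, 2 and 5 between diets in Tg-labelled and WT-labelled livers, and 0 for the interaction, and no call among the 10 changed.

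Above the 75th percentile of mean signal 3990 genes were tested, and of the 10 only Dgat2, Agpat2, Lpin2 and Mttp. The others, Pparg, Mogat1 and Acsl3 among them, could not be called there. Of those tested, 1, 2, 1 and 2 were called in the same order of comparisons. Over the 3990 genes 752 were called between genotypes on the Western diet, 857 between diets in WT-labelled livers and 258 for the interaction. With only the groups compared, 310 genes were called between genotypes on chow, and 3 of the 10 between diets in WT-labelled livers. With median scaling 1 of the 10 was called between diets in Tg-labelled livers, and the cause was not tested.

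With single arrays left out, calls among the 10 ran from 4 to 5 between genotypes on either diet, 1 to 3 between diets in Tg-labelled livers, 2 to 5 in WT-labelled livers and 0 to 1 for the interaction. Over all genes they ran from 909 to 1378 and 409 to 927 between genotypes on the Western diet and chow, 471 to 1032 and 1033 to 1661 between diets in Tg-labelled and WT-labelled livers, and 259 to 473 for the interaction.

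Differences near 0 changed sign. Lpin2 between genotypes on the Western diet was 0.007, and -0.003 with normexp at offset 50, -0.004 with scanner quantile values or offset 16 and -0.121 with median scaling. Gpam between diets in WT-labelled livers was -0.007, and 0.004, 0.005, 0.018 and 0.067 in those settings. With median scaling Dgat2 and Agpat2 between diets in WT-labelled livers were -0.022 and -0.006, and the Dgat1 interaction was -0.009 (-0.001 at offset 16). With single arrays left out, genotype differences on the Western diet ran from -0.128 to 0.02 for Dgat1 and -0.111 to 0.091 for Lpin2. On chow they ran from -0.139 to 0.025 for Dgat1, -0.288 to 0.155 for Lpin1 and -0.113 to 0.035 for Lpin2. Between diets in WT-labelled livers they ran from -0.184 to 0.118 for Gpam and -0.011 to 0.194 for Agpat2. Interactions ran from -0.073 to 0.091 for Dgat1, -0.202 to 0.103 for Gpam, -0.082 to 0.121 for Lpin2 and -0.024 to 0.143 for Acsl3. The cause of these changes was not tested. Low signals, as of Pparg and Mogat1 in Tg-labelled livers, have no detection call, so their fold changes depend on the background correction.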
